A study of Mus musculus with 18 samples.

Results

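This report describes the contrast of hearts from 2-week-old *Lmna*-/- mice with hearts from WT littermates of the same age. It rests on 6 of the 18 hearts of the series, 3 of each genotype, and on the 13143 of 47069 genes that had more than 5 counts in each of those 6 hearts. The series took whole hearts of both genotypes at 3 ages (1 week, 2 weeks, 1 month), with 3 hearts for each genotype and age. The knockout mice were homozygous for the targeted allele *Lmna* tm1Stw, which removes part of the gene in every cell of the animal, and the WT mice carried 2 intact copies and came from the same crosses of heterozygous C57BL/6 parents. The labels give neither sex nor any treatment. Total RNA was depleted of ribosomal RNA before sequencing, so that transcripts without a poly(A) tail were counted together with ordinary mRNAs.

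*Lmna* encodes lamins A and C, filament proteins that line the inner face of the nuclear membrane, hold heterochromatin at the nuclear edge and link the nucleus to the cytoskeleton of the contracting muscle cell. In the weeks after birth cardiac muscle cells leave the cell cycle, enlarge and exchange fetal for adult programs of contraction and metabolism, so 2 weeks lies within a period of rapid change of the normal heart. Immediate early genes encode short-lived transcription factors and phosphatases whose mRNAs are made within minutes of a hormonal, neural, mechanical or handling stimulus, without new protein synthesis. Many of them, like the genes for the NR4A nuclear receptors, carry sites for CREB and AP-1 family factors near their start.

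*Lmna* itself was measured at 19.1, 13.03 and 13.1 CPM (counts for each 1000000 of a library, scaled by the TMM factors of edgeR over all its counts) in *Lmna*-/- hearts 1, 2 and 3 and at 45.2, 37.4 and 37.0 CPM in WT hearts 1, 2 and 3. The gene lies at chr3:88480147-88509956 on the minus strand of GRCm38. The groups did not overlap, with a log2 fold change of *Lmna*-/- over WT of -1.41 ± 0.14 (SE) and an adjusted p of 4.64e-05 by the quasi-likelihood test of edgeR with Benjamini-Hochberg adjustment over all genes, which is the test behind every adjusted p below unless another is named. Counts cover the whole gene model, so reads from the parts that the allele keeps are included.

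The 6 libraries held 12776558 to 27014830 counts, with 65.8% to 70.4% of them mitochondrial, and a count of 3, taken as the floor of detection, was worth 0.118 to 0.238 CPM. Every *Lmna*-/- library was deeper than every WT library. They held 22614225 to 27014830 counts against 12776558 to 22390638 in the WT libraries (exact permutation test, 2-sided, p = 0.1). The ventricular marker *Myl2* was at 2545, 2498 and 2289 CPM in the *Lmna*-/- hearts and 2932, 3030.4 and 2543 CPM in the WT hearts, and the markers of lung (*Sftpc*) and liver (*Alb*) were between 0 and 0.0405 CPM. WT replicate 2, the shallowest library, stood apart from the other 5. Its summed level of 17 lymphocyte markers was 109.8 CPM against 2.23 to 3.53 CPM elsewhere, with the recombinase gene *Rag1* at 59.2 CPM (0.0450 to 0.890 CPM in the others) and the thymic epithelial protease gene *Prss16* at 6.27 CPM (0 to 0.118 CPM). For most lists the count of calls is also given without this heart. Atrial content also varied between hearts of the same group, since the 14 atrial markers summed to 127, 664 and 788 CPM in the *Lmna*-/- hearts and 194, 99.7 and 362 CPM in the WT hearts (exact permutation test, 2-sided, p = 0.3), and none of the 9 that could be tested passed. *Xist* was at 177 CPM in *Lmna*-/- replicate 3 and 235 CPM in WT replicate 2 and at most 0.531 CPM in the other 4 hearts. The labels give the 3 hearts of a group as separate samples. The p-values of the 2-week contrast rest on the spread between these hearts, which edgeR moderates for each gene by that of the other genes. The p-values of other ages and of interactions rest on the hearts of those fits. With 3 hearts against 3, no exact permutation p falls below 0.1.

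**Figure D1:**
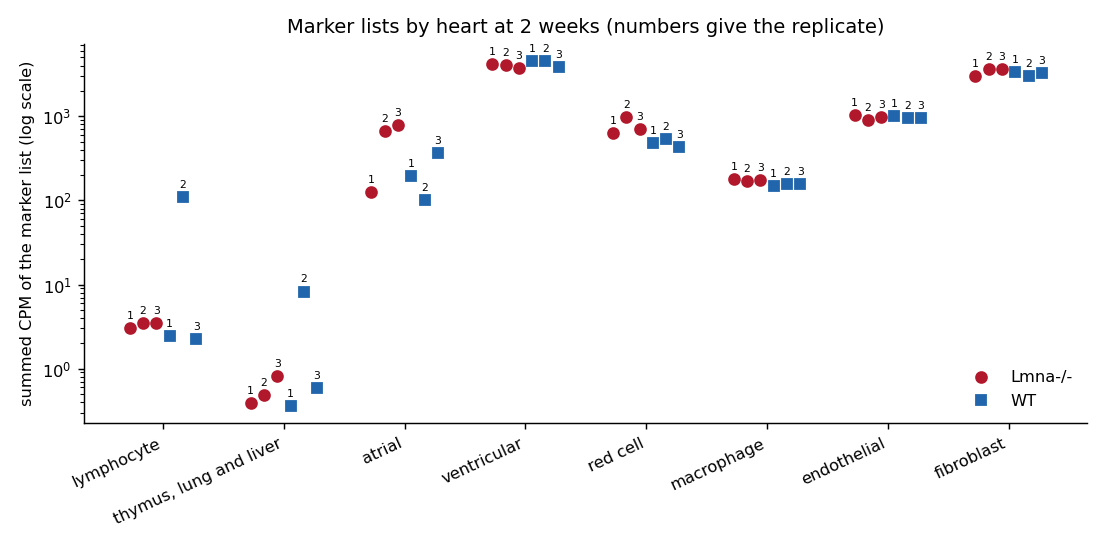
Summed CPM of 8 lists of marker genes (log scale on the vertical axis) in each heart at 2 weeks, with *Lmna*-/- hearts as red circles, WT hearts as blue squares and the replicate number above each point. WT replicate 2 is the only heart with a high lymphocyte sum (109.8 CPM) and also has the highest thymus, lung and liver sum (8.26 CPM), the atrial sums spread from 99.7 to 788 CPM within and between genotypes, and the red cell and macrophage sums are higher in all 3 *Lmna*-/- hearts.

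At an adjusted p under 0.05, 990 of the 13143 genes were called (7.53%), 516 higher (3.93%) and 474 lower (3.61%) in *Lmna*-/- hearts. Without TMM factors, using library size alone, 661 were higher and 274 lower, because that scaling moved the median log2 fold change of all genes from -0.00 to 0.08. Without WT replicate 2 the number was 396, 191 higher and 205 lower, of which 388 were among the 990, and all 990 kept their direction. Without WT replicate 3 it was 488. Lists of genes are described here by how many of their tested members were called, beside these percentages and beside the median over all genes tested (-0.00).

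The hearts differed in how their counts depended on the GC content of the exons. For each heart the slope of the log2 CPM of its genes, relative to their mean over the 6 hearts, was taken over exonic GC content. Per 10 percentage points of GC it was 0.098, 0.098 and 0.050 in *Lmna*-/- hearts 1, 2 and 3 and -0.030, -0.085 and -0.132 in WT hearts 1, 2 and 3. GC-rich genes thus stood relatively higher in every knockout heart and lower in every WT heart (exact permutation p = 0.1, the lowest that 3 against 3 allows). Calls followed the same axis. In the lowest of 10 bins of equal gene number (median GC 39.4%) 1.37% of genes were called higher and 8.01% lower, and in the highest bin (median GC 58.8%) 11.1% were called higher and 1.53% lower. A loess trend over GC was then removed from each library and the test was repeated. Of the 13107 genes with a GC value, 332 were then called higher (2.53%) and 335 lower (2.56%), and the bin of lowest GC held 2.75% higher and 2.97% lower against 2.75% and 2.36% in the bin of highest GC. Whether the trend arose in library preparation or in the hearts was not tested, and since each genotype sits on its own side of it, the trend and the genotype cannot be told apart.

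**Figure D2:**
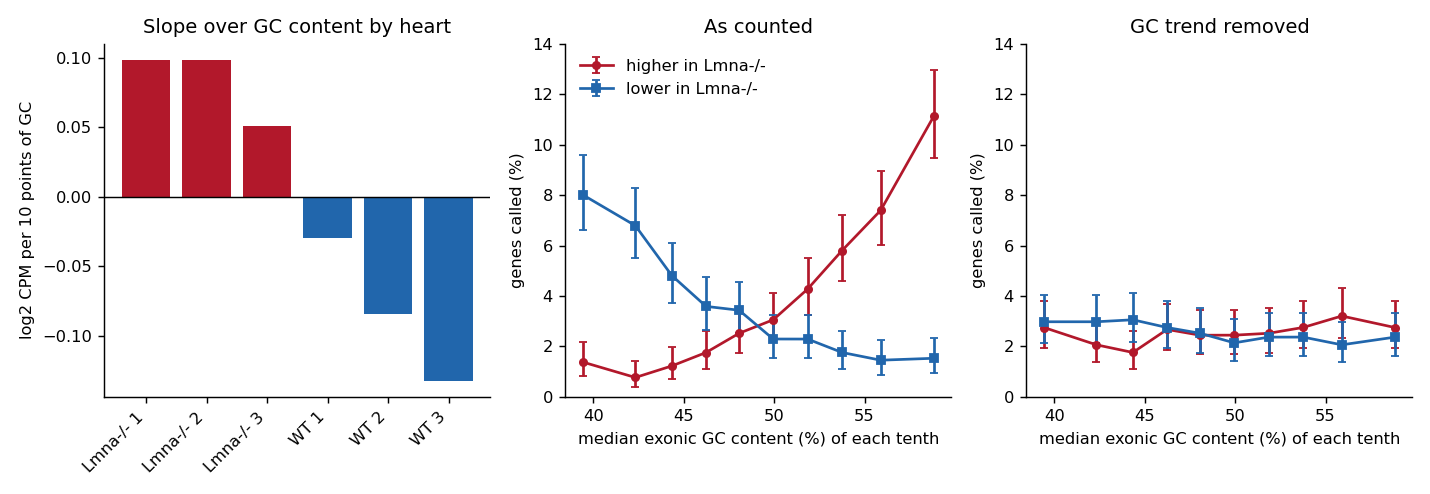
Left, slope of log2 CPM per 10 percentage points of exonic GC content in each heart, above 0 in the 3 *Lmna*-/- hearts (red) and below 0 in the 3 WT hearts (blue). Middle and right, percent of genes called higher (red circles) and lower (blue squares) in *Lmna*-/- hearts in 10 bins of exonic GC content, as counted and after the GC trend was removed, with exact 95% binomial intervals (Clopper-Pearson) that cover counting error only; the crossing lines of the middle panel, from 1.37% to 11.1% higher and from 8.01% to 1.53% lower, lie flat on the right.

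Of the 990 calls, 584 were also made with the trend removed, 277 higher (median GC 51.5%) and 307 lower (47.1%). The 406 that were made only without it split into 239 higher genes with a median GC of 56.7% and 167 lower genes with a median GC of 41.9%, and 4 of the 406 had no GC value. A further 83 genes were called only with the trend removed. Calls made only without the trend removed included *Hif3a* (log2 fold change 1.55, 1.51 with the trend removed, adjusted p then 0.0663), *Fam222a* (1.69, 1.44, 0.0854), *Ciart* (1.39, 1.36, 0.0515) and, on the lower side, the chromatin remodeler gene *Hells* (-1.39, -1.22, 0.0773). These 4 lay close to the threshold in both fits. Called only with the trend removed were the replication licensing gene *Cdt1* (-0.998, then -1.15 with adjusted p = 0.0343) and the histone genes *Hist1h3i* (-1.34, then -1.68, 0.0186) and *Hist1h4a* (-1.01, then -1.13, 0.048), which are GC-rich and lower, and the AT-rich genes *Cngb3*, *Cdh19* and *Gda*, which are higher. A family outside the pathways usually examined was looked at after the values were seen. The 325 tested genes named Zfp, most of them encoding zinc finger proteins, had a median GC of 44.2%. Of these, 6 were called higher and 14 lower, with a median log2 fold change of -0.14. Over all genes tested the shares were 3.93% and 3.61%. With the trend removed 4 were higher and 1 was lower (2.53% and 2.56% over all genes), and the median, at -0.08, stayed below 0.

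Among protein-coding genes with separate groups, the list of immediate early genes held 7 of the 12 largest rises. *Nr4a1*, which encodes an orphan nuclear receptor, was at 65.8, 59.2 and 67.8 CPM in *Lmna*-/- hearts 1, 2 and 3 and at 4.77, 3.25 and 7.08 CPM in WT hearts 1, 2 and 3. Its paralog *Nr4a2* was at 12.3, 9.55 and 10.4 CPM against 0.765, 0.476 and 1.21 CPM. The third member, *Nr4a3*, was at 30.7, 20.6 and 17.5 CPM against 3.56, 2.46 and 5.29 CPM. All 3 receptors were higher in every knockout heart than in any WT heart, with log2 fold changes of 3.63 ± 0.17, 3.63 ± 0.21 and 2.55 ± 0.24 and adjusted p of 8.09e-08, 6.82e-07 and 2.66e-05. Removing the GC trend left them at 3.51, 3.63 and 2.57.

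*Atf3*, a bZIP factor induced by many stresses, was at 25.4, 31.6 and 20.2 CPM in the *Lmna*-/- hearts and 3.20, 2.302 and 3.01 CPM in the WT hearts, an 8.86-fold rise (log2 3.15 ± 0.18, adjusted p = 4.24e-07). *Fos*, which encodes the inducible partner of JUN in AP-1, was at 9.27, 19.99 and 30.5 CPM against 2.52, 1.43 and 3.93 CPM (log2 2.85 ± 0.39, adjusted p = 0.000643). The spread of *Fos* among the knockout hearts exceeded that of *Atf3*, yet its lowest knockout heart was above its highest WT heart. The AP-1 gene *Fosl2* was at 69.1, 67.8 and 54.5 CPM against 16.6, 13.97 and 20.2 CPM (log2 1.90 ± 0.13, adjusted p = 2.59e-06). *Gem*, which encodes a small GTPase that binds the beta subunit of calcium channels, was at 11.6, 9.51 and 8.99 CPM against 1.49, 1.35 and 2.04 CPM (log2 2.59 ± 0.17, adjusted p = 2.06e-06). *Sik1*, a kinase gene induced by cAMP whose product feeds back on CREB coactivators, was at 49.96, 32.9 and 37.4 CPM against 8.33, 8.18 and 11.3 CPM (log2 2.10 ± 0.16, adjusted p = 6.21e-06). The remaining members of the 12 largest rises were the insulin receptor substrate gene *Irs2* (log2 3.08), the ERK phosphatase gene *Dusp5* (1.90), the clock gene *Per1* (1.86) and the small Maf gene *Maff* (1.83). All 12 were still called without WT replicate 2, where *Nr4a1* stood at 3.44, *Nr4a2* at 3.45 and *Fos* at 2.63.

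**Figure D3:**
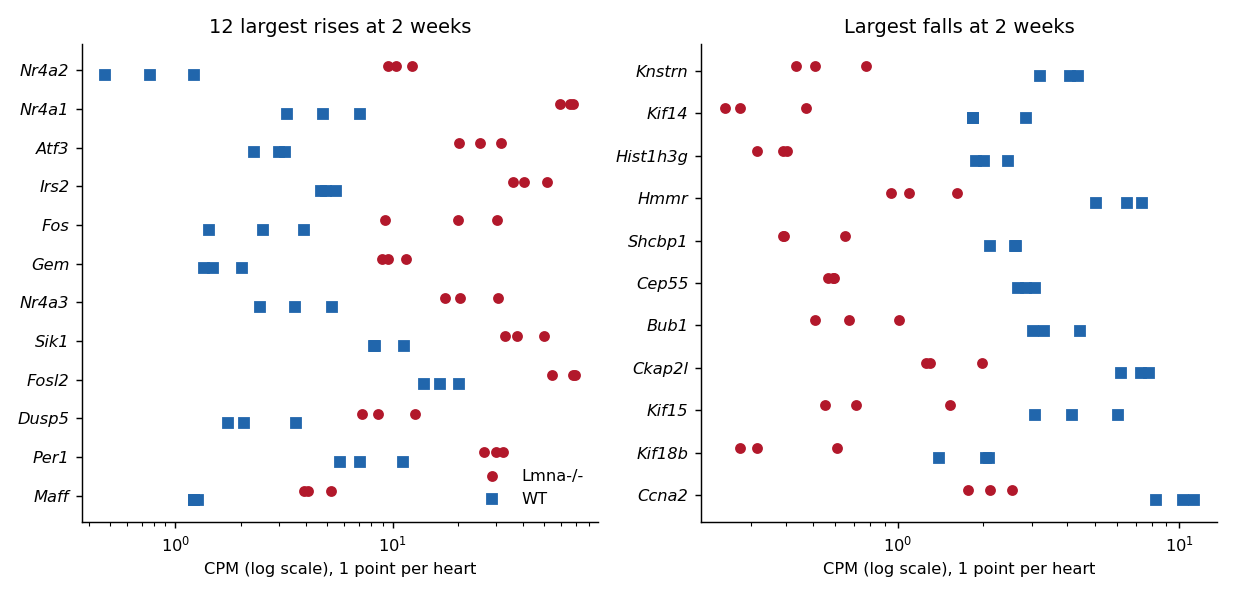
CPM (log scale on the horizontal axis) of the 12 largest rises, left, and 11 of the 12 largest falls, right, with 1 point for each heart, *Lmna*-/- as red circles and WT as blue squares. In none of the genes plotted do the groups overlap, and *Fos* shows the widest spread among the knockout hearts of the rises, from 9.27 to 30.5 CPM.

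The 3 promoters below are shown because their genes are among the largest rises and because they hold the half-site of the cAMP response element, TGACG, on either strand (TGACG or CGTCA, in capitals). They are taken from RefSeq on GRCm38.p6, run from 250 bases before to 50 bases after the RefSeq start, and were available for 10 of the 12 rises. The half-site was chosen for display after the values were seen. Of the rest of the 10, *Nr4a1* holds 4, *Atf3*, *Dusp5* and *Per1* hold 1 each, and *Irs2*, *Fosl2* and *Maff* hold 0. *Nr4a2* lies at chr2:57123954-57124253, minus strand, with 4 half-sites at -200, -144, -123 and -111 from the start, *Fos* at chr12:85473640-85473939, plus strand with 2, and *Nr4a3* at chr4:48045055-48045354, plus strand with 4. The RefSeq start equals the annotated start for *Nr4a2* and *Fos* and lies 152 bases from it for *Nr4a3*. For *Nr4a1*, *Atf3* and *Per1*, counted above, it lies 12577, 34706 and 3732 bases from the annotated start.
Nr4a2: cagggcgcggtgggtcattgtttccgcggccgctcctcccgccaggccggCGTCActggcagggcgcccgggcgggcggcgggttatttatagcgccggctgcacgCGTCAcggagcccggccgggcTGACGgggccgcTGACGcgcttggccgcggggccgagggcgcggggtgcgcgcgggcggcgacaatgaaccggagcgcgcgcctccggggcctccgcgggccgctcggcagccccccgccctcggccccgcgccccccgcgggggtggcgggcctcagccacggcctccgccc
Fos: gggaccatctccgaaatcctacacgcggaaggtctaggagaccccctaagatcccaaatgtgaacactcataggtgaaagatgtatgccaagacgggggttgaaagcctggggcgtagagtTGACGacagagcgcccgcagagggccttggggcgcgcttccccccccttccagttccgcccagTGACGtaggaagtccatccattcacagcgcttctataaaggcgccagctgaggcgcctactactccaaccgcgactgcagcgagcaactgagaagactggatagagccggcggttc
Nr4a3: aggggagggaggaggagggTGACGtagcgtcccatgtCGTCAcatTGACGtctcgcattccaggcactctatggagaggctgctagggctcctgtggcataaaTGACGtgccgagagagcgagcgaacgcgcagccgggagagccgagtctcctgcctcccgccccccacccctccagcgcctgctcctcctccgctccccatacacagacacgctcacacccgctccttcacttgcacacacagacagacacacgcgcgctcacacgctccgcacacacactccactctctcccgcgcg
Of 32851 promoters of this length, 20.8% hold at least 1 TGACG or CGTCA and 0.231% hold 4 or more. The full palindrome TGACGTCA, in which both strings overlap, is in 1.79% of them and in none of the 10 promoters of the rises. A match is a string of letters in a window and does not show that a factor binds there.

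Of the 28 immediate early genes tested, 18 were called higher and none lower, with a median log2 fold change of 0.77 (background 3.93% higher). With the GC trend removed 16 were called, with a median of 0.60, and 16 were called without WT replicate 2. In 21 of the 28 all knockout hearts were above all WT hearts, which held for 13.3% of all genes tested. The called members included *Junb* (log2 1.71 ± 0.17), *Btg2* (1.61 ± 0.17), the matricellular gene *Ccn2* (1.34 ± 0.14) and *Klf4* (1.24 ± 0.15). The list did not move as a block. *Egr1*, which encodes a zinc finger factor induced with *Fos* in many settings, was at 7.69, 11.9 and 17.1 CPM against 8.11, 7.62 and 9.31 CPM (adjusted p = 0.158), and *Myc*, *Fosl1* and *Gadd45b* had log2 fold changes of -0.19, 0.07 and 0.10 without a call. The summed level of the 32 listed genes was 653 to 712 CPM in the *Lmna*-/- hearts and 258 to 334 CPM in the WT hearts (exact permutation p = 0.1).

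These genes also varied between hearts of 1 genotype at the other ages. At 1 week *Nr4a1* was at 12.6, 4.23 and 2.71 CPM in the *Lmna*-/- hearts and 2.85, 39.1 and 3.17 CPM in the WT hearts, and *Irs2* at 9.56, 5.12 and 6.66 CPM and 3.58, 21.9 and 5.17 CPM. For both genes a single WT heart of that age stood far above the other two. At 1 month *Nr4a1* was at 59.9, 49.5 and 58.5 CPM against 24.3, 44.8 and 7.78 CPM, where the groups did not overlap but the WT hearts were far apart, and its log2 fold change of 1.16 was not called (adjusted p = 0.078). At 2 weeks the 3 WT hearts lay between 3.25 and 7.08 CPM.

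A list of glucocorticoid-responsive genes moved in the same direction. Of 20 tested, 14 were called higher and 1, *Angptl4*, lower, with a median log2 fold change of 0.77; with the GC trend removed 9 were higher and 1 lower, and without WT replicate 2 there were 7 higher and none lower. The number higher was 9 without *Lmna*-/- replicate 1 and 8 without *Lmna*-/- replicate 3. *Cebpd*, a bZIP gene of the acute response, was at 6.07, 5.87 and 7.18 CPM against 2.75, 2.54 and 2.52 CPM (log2 1.29 ± 0.15, adjusted p = 0.000153). *Tsc22d3*, which encodes the leucine zipper protein GILZ, was at 71.7, 54.2 and 72.2 CPM against 37.7, 32.5 and 34.8 CPM (log2 0.91 ± 0.12, adjusted p = 0.000372). In both genes the groups were separate. *Fkbp5*, a widely used marker of receptor activity, was at 5.87, 3.64 and 6.04 CPM against 1.89, 4.29 and 2.38 CPM, where WT replicate 2 was above *Lmna*-/- replicate 2 and the call (log2 0.95 ± 0.26, adjusted p = 0.0454) lay close to the threshold. The receptor gene itself, *Nr3c1*, stood at a log2 fold change of -0.23 ± 0.09 (adjusted p = 0.127), and *Pdk4*, another usual target, one of -0.02. *Angptl4*, a lipoprotein lipase inhibitor gene that fasting also induces, was at 12.3, 17.1 and 19.7 CPM against 35.2, 41.6 and 19.6 CPM (log2 -0.96 ± 0.22, adjusted p = 0.0196), with *Lmna*-/- replicate 3 and WT replicate 3 at nearly the same level. *Per1* and *Dusp1* belong to this list and to others.

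Of 22 clock genes, 7 were called higher and none lower (median 0.26), 4 with the GC trend removed and 4 without WT replicate 2. Besides *Per1*, at 32.2, 26.4 and 30.1 CPM against 7.07, 5.72 and 11.2 CPM, they included *Bhlhe40*, a repressor of the clock that hypoxia and hormones also induce, at 44.99, 28.9 and 28.9 CPM against 13.8, 11.4 and 15.4 CPM (log2 1.33 ± 0.16, adjusted p = 0.000277), and *Per2* (0.82 ± 0.13, adjusted p = 0.002). Other members did not pass. *Nr1d1* was at 6.78, 6.72 and 8.63 CPM against 6.98, 6.91 and 8.002 CPM, *Arntl* had a log2 fold change of -0.25 ± 0.15 and *Dbp* one of 0.36 ± 0.23. Of 28 genes of MAPK feedback 6 were called higher and none lower (3 higher without WT replicate 2), led by *Dusp5* and by the stress kinase gene *Map3k6* (1.21 ± 0.20, adjusted p = 0.00297), while *Dusp6*, a usual readout of ERK activity, was at a log2 fold change of -0.19 without a call.

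Among bZIP genes related to the small Mafs, a group chosen after values were seen, 9 of 24 were called higher and none lower (7 with the GC trend removed, 6 without WT replicate 2, median 0.27). Over all genes tested 3.93% were called higher. The group includes *Atf3* and *Maff* of the 12 largest rises, so it is not separate from the genes described above. *Maff* was at 4.06, 5.18 and 3.92 CPM against 1.22, 1.27 and 1.21 CPM and *Mafk* at 17.3, 13.8 and 13.3 CPM against 7.02, 5.56 and 6.11 CPM (log2 1.23 ± 0.13, adjusted p = 9.09e-05), and *Jdp2*, which encodes a partner of JUN, had a log2 fold change of 1.13 ± 0.17. The CREB gene *Creb1* (-0.23 ± 0.08) and its relative *Crem* (0.09 ± 0.17) were not called.

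Among protein-coding genes with separate groups, the list of mitosis and kinetochore genes held 7 of the 12 largest falls. *Knstrn*, which encodes a kinetochore protein of the mitotic spindle, was at 0.434, 0.769 and 0.510 CPM in the *Lmna*-/- hearts and 4.10, 4.37 and 3.20 CPM in the WT hearts, a fall of 6.72-fold (log2 -2.75 ± 0.25, adjusted p = 2.66e-05). The kinesin gene *Kif14* was at 0.276, 0.243 and 0.471 CPM against 1.85, 2.86 and 1.84 CPM (log2 -2.66 ± 0.32, adjusted p = 0.000223). *Hmmr*, whose product organizes spindle microtubules, was at 0.946, 1.62 and 1.099 CPM against 7.34, 6.51 and 5.04 CPM (log2 -2.36 ± 0.22, adjusted p = 2.66e-05). In these 3 genes every knockout heart lay below every WT heart, as it did in 14.2% of all genes tested. *Shcbp1*, *Cep55* (needed for the final cut between daughter cells), *Bub1* (a spindle checkpoint kinase), *Ckap2l*, *Kif15*, *Kif18b* and *Ccna2* (cyclin A) were also among the 12 largest falls, at log2 fold changes from -2.34 to -2.20, as was 1 histone gene.

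*Ckap2l*, another gene of the spindle, was at 1.30, 1.98 and 1.26 CPM against 7.29, 7.78 and 6.21 CPM, and *Cep55* at 0.591, 0.567 and 0.589 CPM against 3.06, 2.86 and 2.67 CPM. Over the list of mitosis and kinetochore genes, 54 of 57 tested were called lower and none higher, with a median log2 fold change of -1.91 (-1.84 with the GC trend removed, again with 54 called). Without WT replicate 2, the heart with thymic markers, 50 were called and the median was -1.78. The summed level of the 65 listed genes was 130 to 170 CPM in the *Lmna*-/- hearts and 388 to 521 CPM in the WT hearts. In bulk hearts, fewer cells of a type and less RNA per cell cannot be told apart.

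Promoters of the cell cycle genes that peak in late phases often pair CCAAT boxes with a cell cycle homology region (CHR). Of the 9 falls with a promoter in the RefSeq set, 4 hold both, and the 3 shown are those whose RefSeq start lies within 15 bases of the annotated start. Capitals mark CCAAT or ATTGG and TTTGAA or TTCAAA, which are the letters searched on both strands. *Hmmr* lies at chr11:40733388-40733687, minus strand, *Ckap2l* at chr2:129297163-129297462, minus strand and *Kif18b* at chr11:102925075-102925374, minus strand.
Hmmr: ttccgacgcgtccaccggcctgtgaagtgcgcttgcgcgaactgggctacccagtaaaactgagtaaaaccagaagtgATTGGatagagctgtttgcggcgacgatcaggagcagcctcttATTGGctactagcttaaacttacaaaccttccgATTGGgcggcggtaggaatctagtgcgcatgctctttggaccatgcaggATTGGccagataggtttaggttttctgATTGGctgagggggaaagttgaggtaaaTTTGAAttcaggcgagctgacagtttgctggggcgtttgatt
Ckap2l: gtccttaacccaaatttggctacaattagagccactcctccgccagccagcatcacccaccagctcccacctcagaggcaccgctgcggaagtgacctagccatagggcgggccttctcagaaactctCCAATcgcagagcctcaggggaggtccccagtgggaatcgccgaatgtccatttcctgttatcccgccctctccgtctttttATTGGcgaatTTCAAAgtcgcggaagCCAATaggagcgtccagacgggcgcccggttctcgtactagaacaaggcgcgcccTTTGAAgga
Kif18b: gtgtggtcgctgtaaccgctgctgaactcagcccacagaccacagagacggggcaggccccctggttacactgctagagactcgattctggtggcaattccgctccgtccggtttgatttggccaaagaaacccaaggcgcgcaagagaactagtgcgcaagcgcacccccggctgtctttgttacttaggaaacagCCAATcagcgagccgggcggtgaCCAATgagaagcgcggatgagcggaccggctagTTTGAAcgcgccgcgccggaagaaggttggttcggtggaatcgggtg
Of the 32851 promoters, 37.4% hold the CCAAT letters, 17.9% the CHR letters and 6.95% both. Promoters were matched for 75.2% of the genes tested, 75.4% of those called higher and 69.6% of those called lower, so no share is given over the called genes.

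Replication-dependent histone genes, whose mRNAs end in a stem-loop in place of a poly(A) tail and accumulate in S phase, fell as well. Of 36 tested, 21 were called lower and none higher, with a median log2 fold change of -1.31. These genes are GC-rich (median 56.1%), and with the GC trend removed 22 were called and the median was -1.40; without WT replicate 2 there were 13 and the median was -1.05. *Hist1h3g* was at 0.315, 0.405 and 0.392 CPM against 2.03, 2.46 and 1.89 CPM (log2 -2.48 ± 0.27, adjusted p = 9.21e-05). The linker histone gene *Hist1h1a* was at 2.09, 4.41 and 2.16 CPM against 10.1, 19.1 and 8.49 CPM (log2 -2.08 ± 0.31, adjusted p = 0.00126), and WT replicate 2 held the highest value. *Hist1h1b* was at 1.62, 3.20 and 1.69 CPM against 7.11, 15.1 and 6.26 CPM with the same heart on top (log2 -2.07 ± 0.33, adjusted p = 0.0019). The 21 called genes all lie in the Hist1 cluster on chromosome 13, of which 33 members were tested, and the 2 tested genes of the Hist2 cluster and the 1 of Hist3 in the list had negative fold changes without a call. Outside the list, *Hist2h4* on chromosome 3 was called lower (log2 -1.03). The other 29 of the 65 listed genes were not tested, and 8 of these had no count in any of the 6 hearts.

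Of 34 genes for cohesin and for chromatin and nucleotide supply of cycling cells, 13 were called lower and none higher (median -0.48), 11 with the GC trend removed, and 2 without WT replicate 2. *Rrm2*, the regulated subunit of ribonucleotide reductase, was at 1.38, 2.27 and 1.77 CPM against 6.93, 8.26 and 4.95 CPM (log2 -1.87 ± 0.22, adjusted p = 0.000167), and *Uhrf1*, which guides maintenance of DNA methylation, was at 0.986, 2.83 and 1.18 CPM against 3.56, 7.06 and 3.25 CPM (log2 -1.41 ± 0.37, adjusted p = 0.0343). *Pcna*, at a log2 fold change of -0.39, was not called.

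Short non-coding RNAs were looked at after the values were seen. In the classes misc_RNA, snRNA, snoRNA, scaRNA and ribozyme, 46 genes of 70 to 414 bases were tested, and 28 were called lower and none higher, with a median log2 fold change of -1.05. The 7SK RNA gene *Rn7sk*, whose product holds the elongation factor P-TEFb inactive, was at 2541, 2088 and 2326 CPM in the *Lmna*-/- hearts and 3381, 3728 and 4002 CPM in the WT hearts (log2 -0.68 ± 0.11, adjusted p = 0.00173). *Rmrp*, the RNA of the RNase MRP complex, was at 8.52, 9.43 and 9.73 CPM against 22.6, 29.0 and 26.9 CPM (log2 -1.50 ± 0.11, adjusted p = 3.42e-06). The Y RNA gene *Rny3* was at 3.47, 3.97 and 4.55 CPM against 9.91, 13.7 and 10.4 CPM (log2 -1.49 ± 0.15, adjusted p = 6.32e-05). The groups were separate in all 3. By class, 14 of 16 misc_RNA genes, 5 of 5 snRNA genes, 7 of 18 snoRNA genes, 2 of 2 ribozyme genes and 0 of 5 scaRNA genes were called lower. The misc_RNA entries include *Rn7s1*, *Rn7s2* and *Rn7s6* of the 7SL RNA family and copies whose sequences are near-identical, so the split of reads among them is uncertain.

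The short RNAs had a median GC of 52.3% (49.0% over all genes tested) and a median length of 177.5 bases, and both properties were examined. With the GC trend removed 27 were called lower. With a second trend over length removed as well 18 were lower and 1 higher, with a median of -0.59. The 18 were 12 misc_RNA, 4 snRNA and 2 ribozyme genes, and of the snoRNA genes 0 were then lower and 1 higher. Without WT replicate 2 the number was 22. At 1 month, where 32 of the 46 could be tested, 3 were called higher and none lower. Residual ribosomal RNA varied widely between the hearts. The rRNA entry *CT010467.1* was at 949, 1649 and 1042 CPM against 518, 763 and 222 CPM (log2 1.28 ± 0.32, adjusted p = 0.0319) and the miRNA entry *Mir6236* at 923, 1536 and 1081 CPM against 579, 919 and 236 CPM (adjusted p = 0.0844). Genes outside the protein-coding class tended to be lower at every length, for example with a median log2 fold change of -0.22 over 349 processed pseudogenes and -0.33 over 175 TEC entries (loci awaiting experimental support), against 0.01 over 12047 protein-coding genes. Of these pseudogenes only 25 could also be tested at 1 week and 28 at 1 month. For the TEC entries the numbers were 121 and 150, and for the protein-coding genes 11667 and 11698. The reason for this difference between the ages was not tested. The 14 tested protein-coding genes of 200 to 400 bases were also low, with a median of -0.39. Their lowest member, at -1.86, is a replication-dependent histone gene, so this set is not separate from the histone list. Neither the part of residual ribosomal RNA nor that of the filter on counts in these differences was tested. The filter asked for more than 5 counts in every heart, so low-count genes had to reach the highest CPM in WT replicate 2, the shallowest library.

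**Figure D4:**
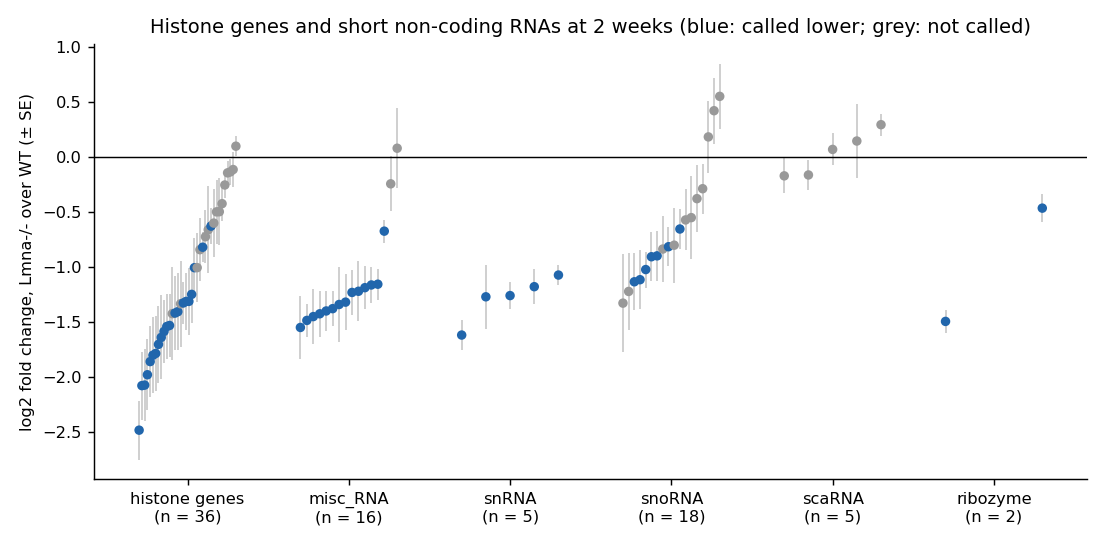
Log2 fold change of *Lmna*-/- over WT hearts (± SE) of each tested replication-dependent histone gene and of each tested short non-coding RNA gene by class, ordered by value within its class, with blue for genes called lower and grey for genes not called. The histone genes (median -1.31) and the misc_RNA, snRNA and ribozyme genes lie almost all below 0, and the 5 scaRNA genes lie around 0.

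The few calls among genes of the contractile apparatus went in both directions. The lists from here on are to be read against the shares over all genes tested, 3.93% called higher and 3.61% lower. Of 41 genes of sarcomere and Z-disc, 4 were called higher and 3 lower (median 0.11), and 2 and 3 with the GC trend removed. Without WT replicate 2 none was called higher and 1 lower, and leaving out each heart in turn gave 0 to 9 higher and 1 to 3 lower. *Ttn*, which encodes the giant spring protein titin, was at 17429, 13303 and 19613 CPM in the *Lmna*-/- hearts and 23229, 26616 and 34374 CPM in the WT hearts (log2 -0.74 ± 0.16, adjusted p = 0.0147). Titin's partner at the Z-disc, *Tcap*, was at 91.2, 110.3 and 111 CPM against 78.8, 56.6 and 71.8 CPM (log2 0.59 ± 0.12), a call that was lost with the GC trend removed (adjusted p = 0.115). The slow myosin gene *Myh7* was at 29.1, 18.3 and 23.3 CPM against 11.3, 11.99 and 16.9 CPM (log2 0.81 ± 0.17, adjusted p = 0.0117). *Tnnt2* (log2 0.37) and the cardiac troponin I gene *Tnni3* (0.33) were also called higher, and *Tpm4* (-0.55) and *Xirp2* (-0.47) lower. At 1 month *Myh7* was at 1359, 239 and 404 CPM in the *Lmna*-/- hearts and 32.7, 26.7 and 42.1 CPM in the WT hearts, so the 2-week difference was small beside the later one.

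Of 36 genes of calcium handling and ion channels 3 were called higher and 1 lower (2 and 1 with the GC trend removed). Only *Hcn4* was called higher and *Kcnj2* lower without WT replicate 2, and leaving out each heart in turn gave 1 to 6 higher. *Hcn4*, the pacemaker channel gene, was at 3.71, 3.44 and 4.003 CPM against 1.67, 1.51 and 1.55 CPM (log2 1.23 ± 0.18, adjusted p = 0.00101, 1.06 with the GC trend removed), without overlap. The atrial sums of the same hearts overlapped, and the part of tissue content in the *Hcn4* values was not tested. *Kcnj2*, the gene of the inward rectifier that sets the resting potential of ventricular muscle, was at 31.9, 28.2 and 31.7 CPM against 45.9, 44.5 and 47.5 CPM (log2 -0.59 ± 0.08, adjusted p = 0.000941). *Kcnj5* (log2 0.40) and the T-type channel gene *Cacna1h* (0.68) were called higher, the latter not with the GC trend removed. Of 15 genes tested for wall stress, 2 were called higher and 2 lower, 3 and 0 with the GC trend removed, and 1 and 0 without WT replicate 2. *Agt*, the angiotensin precursor gene, rose from 1.53, 1.11 and 1.41 CPM in the WT hearts to 2.88, 3.64 and 3.34 CPM (log2 1.25 ± 0.20, adjusted p = 0.0023). *Nppb*, the gene of brain natriuretic peptide, was at 12.9, 19.6 and 20.7 CPM against 33.3, 24.9 and 22.6 CPM (log2 -0.61 ± 0.17, adjusted p = 0.0433). Its adjusted p was 0.0594 with the GC trend removed and 0.102 without WT replicate 2. *Postn*, a matrix gene of activated fibroblasts, was lower at log2 -0.57 and likewise lost its call (0.186).

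Among 25 genes of the nuclear lamina and envelope 2 were called higher and 2 lower (median 0.04). Only *Lmnb1* was called without WT replicate 2, and the adjusted p was 0.0717 for *Tmpo*, 0.0982 for *Emd* and 0.0766 for *Sun2*. *Lmnb1*, which encodes lamin B1 and is high in dividing cells, was at 2.13, 3.04 and 2.47 CPM against 5.54, 6.43 and 3.98 CPM (log2 -1.04 ± 0.20, adjusted p = 0.00673). *Tmpo*, the gene of the LAP2 proteins that bind lamins, was at 17.4, 21.3 and 20.4 CPM against 25.2, 31.8 and 27.5 CPM (log2 -0.51 ± 0.10). *Emd*, which encodes emerin, was at 13.997, 12.8 and 9.42 CPM against 8.69, 8.33 and 7.52 CPM (log2 0.56 ± 0.14, adjusted p = 0.0314). *Sun2* (log2 0.41) was called higher only without the GC trend removed. Of 26 nuclear pore genes only *Nup54* was called (lower, log2 -0.40), and neither with the GC trend removed nor without WT replicate 2.

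In the lists of lysosome, chaperone, endoplasmic reticulum folding and stress response genes all calls were higher, and most were lost without WT replicate 2. Of 38 lysosome and autophagy genes, 34 had a positive fold change and 7 were called higher (median 0.21), but with the GC trend removed 2 were called and without WT replicate 2 only 1. *Bnip3*, a mitophagy receptor gene, and *Ctsl*, a cathepsin gene, were the 2 (log2 0.52 and 0.37, then 0.61 and 0.46), while *Sqstm1* (0.52), *Gaa* (0.45) and *Ctsd* (0.39) lost their calls. Of 29 heat shock and chaperone genes 6 were called higher, 3 with the GC trend removed (*Cryab*, *Hspb1* and *Hspa1b*) and 1 without WT replicate 2. *Hspb1* was at 44.2, 39.8 and 39.4 CPM against 29.0, 27.3 and 27.6 CPM (log2 0.55 ± 0.08, adjusted p = 0.0012). Of 22 genes of endoplasmic reticulum folding *Dnajb9* (log2 0.45) and *Herpud1* (0.49) were called higher with and without the GC trend, and neither without WT replicate 2 (adjusted p = 0.0507 and 0.0955). In the integrated stress response 3 of 22 were called higher, of which *Slc3a2*, the heavy chain of amino acid exchangers, was at 26.5, 19.1 and 16.2 CPM against 10.7, 9.21 and 9.46 CPM (log2 1.07 ± 0.16, adjusted p = 0.00113) and was alone in keeping its call with the trend removed; without WT replicate 2, 1 was called.

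Nutrient and growth genes gave smaller counts. Of 27 genes of FOXO and the fasting response 5 were called higher and none lower in both fits, 3 without WT replicate 2, among them *Bcl6* (log2 0.86 ± 0.13), *Klf15* (0.995 ± 0.21) and the ubiquitin ligase gene *Fbxo30* (0.55 ± 0.10). Of 33 PPAR target genes 4 were called higher and 1 lower (2 and 0 without WT replicate 2), with the fatty acid transporter gene *Slc27a1* at log2 0.56 and *Ech1* and *Mlycd* at 0.37 and 0.33, the last pair only as counted. Among 24 imprinted growth genes *Mest*, active in fetal growth, was at 9.66, 14.8 and 10.7 CPM against 24.8, 24.4 and 21.2 CPM (log2 -1.004 ± 0.14, adjusted p = 0.000577). *Ogdhl*, a gene of mitochondrial 2-oxoacid oxidation, was at 26.4, 20.9 and 18.6 CPM against 7.02, 4.76 and 8.002 CPM (log2 1.70 ± 0.16, adjusted p = 3.88e-05). Both *Mest* and *Ogdhl* were without overlap between the groups.

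A small number of genes of innate immunity rose. The complement and MHC class I lists were chosen after the values were seen. Of 22 complement genes 6 were called higher and none lower (median 0.31), 6 with the GC trend removed and 4 without WT replicate 2. *C4b* was at 3.90, 4.29 and 3.92 CPM against 1.58, 1.59 and 1.94 CPM (log2 1.24 ± 0.17, adjusted p = 0.000838). Of 8 MHC class I genes 3 were called higher, and without WT replicate 2 there was 1. *H2-K1* was at 24.3, 19.5 and 18.8 CPM against 12.7, 12.6 and 10.2 CPM (log2 0.82 ± 0.12, adjusted p = 0.00113), whereas *B2m*, which encodes their shared light chain, was at 72.8, 73.0 and 59.1 CPM against 65.5, 66.0 and 62.7 CPM. Of 28 interferon response genes only *Irf7* was called (higher, log2 1.06). Beside these, the 19 macrophage markers summed to 168 to 179 CPM in the *Lmna*-/- hearts and 149 to 156 CPM in the WT hearts, and 4 of 18 tested, *Cd14* (log2 1.27), *Cd163* (0.84), *Cd68* (0.62) and *Lyve1* (0.50), were called higher (1 without WT replicate 2); the 13 markers of granulocytes and mast cells summed to 8.04 to 10.2 CPM against 9.84 to 11.03 CPM. The part of cell number in the complement and MHC values was not tested.

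Red cell markers summed to 628 to 981 CPM against 436 to 540 CPM (exact permutation p = 0.1), all 11 tested had a positive fold change, and *Hba-a1* (log2 0.99), *Alas2* (0.87) and *Hbb-bs* (0.75) were called higher. The number called was also 3 without WT replicate 2, and 8 without *Lmna*-/- replicate 1. The 24 endothelial markers summed to 893 to 1034 CPM against 940 to 1007 CPM, 13 of them had a positive fold change, and *Vwf*, *Cldn5*, *Plvap* and *Sox17* were called higher and none lower (2 with the GC trend removed, and *Cldn5* and *Plvap* without WT replicate 2). The fibroblast markers summed to 3035 to 3673 CPM against 3023 to 3387 CPM, and of 17 tested *Gsn*, *Dpep1* and *Fbln1* were called higher, also without WT replicate 2, and *Postn* lower, which was not. *Gsn*, which encodes the actin-severing protein gelsolin, was at 268, 266 and 327 CPM against 137, 107 and 143 CPM (log2 1.15 ± 0.12, adjusted p = 7.98e-05). In the list of BMP and TGF-beta feedback genes, chosen after values were seen, 5 of 27 were called higher and none lower, with *Tmem100* at 29.6, 28.6 and 21.5 CPM against 12.4, 11.9 and 15.7 CPM (log2 0.99 ± 0.13) and the inhibitory SMAD gene *Smad7* at 0.81 ± 0.14, 4 with the GC trend removed and 4 without WT replicate 2.

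Several large gene families gave counts at or below the background of 7.53%. Of 81 cytosolic ribosomal protein genes 1 was called higher and 4 lower, and of these *Rps3a1* (log2 -1.48) has near-identical copies elsewhere in the genome, and the split of reads among them was not tested. Of 77 mitochondrial ribosomal protein genes and of 22 cholesterol synthesis genes none was called at an adjusted p under 0.05, with medians of -0.02 and -0.05; their most abundant members were *Mrpl42* (log2 -0.10 ± 0.09) and *Mrpl51* (-0.08 ± 0.09), and *Hmgcs1* (0.02 ± 0.09) and *Hsd17b7* (0.06 ± 0.15). Of 40 proteasome genes *Psmb7* alone was called (lower, log2 -0.33), of 34 genes of RNA binding and splicing *Rbm38* alone (higher, 0.70), and of 24 Wnt genes *Sfrp1* alone (higher, 0.37), each only as counted. A p that misses the threshold does not show that these genes are alike in the genotypes.

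**Figure D5:**
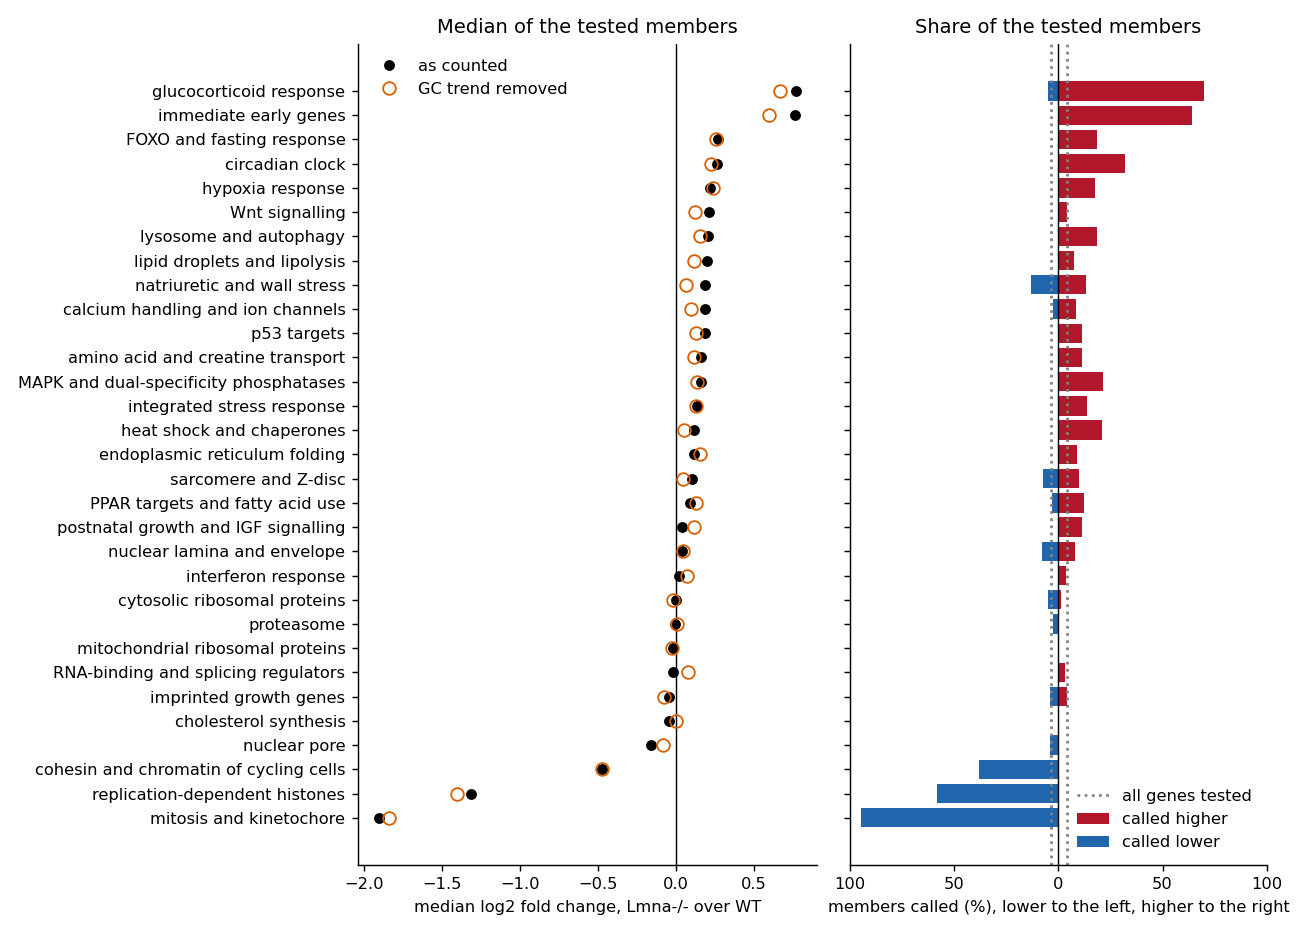
For each of 31 gene lists, the median log2 fold change of the tested members (left; filled, as counted; open, with the GC trend removed) and the percent of them called higher (red, to the right) and lower (blue, to the left), with dotted lines at the percent over all genes tested. Glucocorticoid response and immediate early genes have the highest medians (0.77 each), mitosis, histone and cycling chromatin genes the lowest (-1.91, -1.31 and -0.48), and the remaining lists lie near 0.

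The neighbourhood of the targeted gene was examined because a knockout allele is often carried on a segment from another strain. Within 10 Mb of *Lmna*, 11 of 207 other tested genes were called (5.31%), against 7.53% over all genes, and within 5 Mb 3 of 106 (2.83%). The 11 were 5 higher and 6 lower. All are protein-coding. They included *Iqgap3* (log2 -1.81 ± 0.25), a scaffold gene of proliferating cells, *Rps3a1*, *BC028528* (-0.99), *Map9* (-0.74), *Fam198b* (-0.49) and *Hist2h4* (-1.03) on the lower side and *Ciart*, *Dpm3* (0.66), *Adamtsl4* (0.59) and *Selenbp1* (0.54) on the higher side. Without WT replicate 2 there were 5 and without WT replicate 3 there were 7. At 1 week 0 of 188 and at 1 month 24 of 193 genes of the window were called. Over all genes the counts were 0 of 12230 and 1220 of 12332.

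Genes were also grouped by what they do in WT hearts between 1 week and 1 month, using hearts that take no part in the 2-week contrast. Of the 784 tested genes that rise at least 2-fold over that time, 112 were called higher and 12 lower in the 2-week *Lmna*-/- hearts, with a median log2 fold change of 0.21. Of the 759 that fall at least 2-fold, 17 were called higher and 170 lower, with a median of -0.25. Over all genes tested the calls were 3.93% higher and 3.61% lower, near balance. With the GC trend removed the counts were 87 and 4 for the risers and 15 and 143 for the fallers, and without WT replicate 2 they were 53 and 6, and 9 and 96. Without WT replicate 3 they were 70 and 1, and 9 and 132. Leaving out members of the mitosis, histone and chromatin lists, 114 of 683 fallers were called lower, with a median of -0.21. All knockout hearts lay above all WT hearts in 240 of the risers and below them in 30, and above in 37 and below in 284 of the fallers. Over all genes tested this held for 13.3% above and 14.2% below. The maturation lists were defined at an adjusted p under 0.05, where 5902 of 12692 genes passed between the WT ages.

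At 1 week 0 of 12609 genes were called by edgeR (0%), with 302 at an unadjusted p under 0.05, and at 1 month 1249 of 12815 (9.75%). *Lmna* itself was thus not called at 1 week, while the paper, with DESeq2, reports it as the single gene reduced at that age. The absence of calls at 1 week therefore does not show that the genotypes are alike there. The difference between the genotypes at 2 weeks departed from that at 1 week in 7 of 12231 genes (0.0572%) and from that at 1 month in 911 of 12333 genes (7.39%), by the interaction of genotype and age in edgeR. *Nr4a2* departed most from 1 week, where its log2 fold change was -0.27 ± 0.31, with a difference of 3.92 ± 0.41 (adjusted p = 0.00348), and *Gem* and *Fosl2* were also among the 7. Leaving out any single 2-week heart brought the 7 down to 1 or 2, and leaving out *Lmna*-/- replicate 1 of the 1-week hearts raised it to 183. Against 1 month, *Nr4a1* and *Irs2* were higher at 2 weeks by 2.46 ± 0.53 and 2.40 ± 0.44, while *Myh7* was lower by 3.48 ± 0.62 and the cell cycle genes *Mybl1* and *Gas2l3*, which fell at 2 weeks (log2 -1.37 and -1.33), were above WT at 1 month (1.39 and 1.07). The 911 became 376 without WT replicate 2, 553 without WT replicate 3 and 502 without *Lmna*-/- replicate 1 of the 2-week hearts, and 494 and 595 without WT replicates 3 and 1 of the 1-month hearts.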

How the data were processed

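Whole hearts were sequenced as ribosomal RNA-depleted, stranded total RNA in paired ends. The authors aligned reads with STAR (the submitters' processing notes give 2.3.1d and the mm10 genome, while the study's methods name a later version) and deposited raw counts of uniquely mapped read pairs that lay within the merged exons of 1 gene. The counting tool and its annotation are not given in the sources used here. The notes name DESeq2, which the study used on these counts. Counts as deposited were read here for 47069 genes, and a gene was tested if its count exceeded 5 in every one of the 6 hearts, as in the study. Symbols, biotypes, positions, GC content and length came from GENCODE M21 (GRCm38), which matched 46574 of the 47069 genes. A GC value was found for 13107 of the 13143 tested genes.

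The main test was the quasi-likelihood test of edgeR 4.0.16 (R 4.3.3) with TMM factors over all counts, mitochondrial counts included, and genotype as the only term; genes with an adjusted p under 0.05 (Benjamini-Hochberg) were called. Levels are CPM on TMM-scaled library sizes and are not divided by gene length, so they compare hearts and not genes. The common biological coefficient of variation was 0.103. For the GC alternative a loess trend (span 0.3) of each library over GC was passed to edgeR as an offset, in 1 alternative with a trend over length. Counts of other ages were fitted likewise, and interactions of genotype and age were tested in 1 fit over the 2 ages. Alternatives were DESeq2 1.42.0, other scalings, filters and covariates, 1 fit over 18 hearts and each heart left out. Tables were made with Python 3.11.15, pandas 2.3.3 and scipy 1.17.1. The steps were tested on simulated data. Between libraries of a group, chi-square per degree of freedom was at least 5.81, so none was counted as a copy of another.

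The members and the lists (31 of function, 14 of markers and 5 more after the values were seen) were chosen with earlier results of these data known, and the lists get no test of their own. Genes were named by a rule: *Lmna*, the 12 largest rises and falls among called protein-coding genes with separate groups and a group mean of at least 1 CPM, up to 6 called members of each list (3 in each direction where there are more, or the 2 most abundant where none is called), the largest GC-dependent calls, the called genes within 10 Mb of *Lmna* and the 5 largest interactions in each direction. Other genes named here, such as *Junb*, *Klf4*, *Egr1*, *Myc*, *Tsc22d3*, *Fkbp5*, *Nr3c1*, *Nr1d1*, *Dusp6*, *Pcna*, *Rn7sk* and *Rmrp*, were chosen after their values were seen. Promoters came from RefSeq (GRCm38.p6). A few genes that the rule would name are not reported here.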

Additional observations from a re-analysis of the deposited data

Results flagged for a closer look

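Genes were singled out here because the interaction of genotype and age in edgeR passed an adjusted p under 0.05, so that their log2 fold change of *Lmna*-/- over WT differed between 2 weeks and another age. Up to 5 in each direction and comparison are given, of 7 genes against 1 week and 911 against 1 month.

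Against 1 week, the nuclear receptor gene *Nr4a2* changed by 3.92 ± 0.41 (SE, adjusted p = 0.00348), from -0.27 to 3.63. The GTPase gene *Gem* changed by 2.85 ± 0.41 (adjusted p = 0.0394), the AP-1 gene *Fosl2* by 1.99 ± 0.31 and *Ogdhl* by 1.74 ± 0.26, all with the same adjusted p. At 1 week *Ogdhl* was at 7.53, 6.997 and 8.13 CPM in the *Lmna*-/- hearts and 7.11, 8.72 and 7.18 CPM in the WT hearts, and at 1 month at 37.9, 40.6 and 35.2 CPM and 61.8, 46.9 and 63.2 CPM, so its direction at 1 month was opposite to that at 2 weeks. *Rmrp*, the RNA of RNase MRP, changed by -2.12 ± 0.32, from 0.59 at 1 week to -1.50. The miRNA entry *Gm24187* changed by 3.12 ± 0.49 against 1 week and by 3.34 ± 0.45 against 1 month (adjusted p = 0.000837). Its 2-week levels were 39.3, 69.4 and 40.6 CPM against 7.29, 5.79 and 1.65 CPM. The rRNA entry *CT010467.1* was likewise highest in *Lmna*-/- replicate 2 and lowest in WT replicate 3, and the part of residual ribosomal RNA was not tested.

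Against 1 month, *Nr4a1* was higher at 2 weeks by 2.46 ± 0.53 (adjusted p = 0.0118) and *Irs2* by 2.40 ± 0.44 (adjusted p = 0.00455). The slow myosin gene *Myh7* differed by -3.48 ± 0.62 (adjusted p = 0.00405), with 0.81 at 2 weeks and 4.30 at 1 month. The cell cycle genes *Mybl1* and *Gas2l3* differed by -2.75 ± 0.42 and -2.39 ± 0.29 (adjusted p = 0.00164 and 0.000371). Of the remaining entries, *Gm6166* differed by 2.57 ± 0.42, *2210407C18Rik* by 2.54 ± 0.55, *Gm37534* by -4.09 ± 0.87 and *Gm43300* by -2.34 ± 0.63. The log2 fold change of *2210407C18Rik* was -2.83 at 1 month and -0.29 at 2 weeks.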

How the results depend on the processing

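Alternatives moved the number of calls far more than their direction. Over 165 named genes and all alternatives 3099 values were computed, of which 2529 kept their side of the threshold, 507 lost it and 63 gained it. The sign changed in 10 values of 7 genes, none called in either fit, among them *Cd4* (-1.86, and 0.42 without WT replicate 2). Leaving out 1 heart gave 396 to 1250 calls (191 to 681 higher, 205 to 569 lower), 16 to 20 immediate early genes, 7 to 14 glucocorticoid genes, 50 to 55 mitosis genes and 13 to 24 histone genes. Within 10 Mb of *Lmna* it gave 5 to 16. For genes rising with age in WT hearts it gave 53 to 161 higher and 1 to 13 lower, for those falling 9 to 28 higher and 96 to 214 lower. Interactions ranged from 1 to 183 (1 week) and 376 to 933 (1 month).

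Without the filter on counts 1684 genes were called (927 higher, 757 lower), 22 within 10 Mb of *Lmna*, 32 histone genes, 423 and 1662 interactions against 1 week and 1 month, 196 risers higher and 19 lower, and 37 fallers higher. In 1 fit over 18 hearts, which adds the wider spread of the other ages, there were 452 (252 and 200), with 6 glucocorticoid, 8 histone and 21 mitosis genes, 52 risers higher and 1 lower, and 3 fallers higher and 86 lower. Library size alone gave 274 lower, 4 risers lower and 552 interactions against 1 month. With the GC trend removed there were 332 higher, 9 glucocorticoid genes, 4 risers lower and 3 interactions against 1 week; the lowest GC bin went from 1.37% to 2.75% higher and from 8.01% to 2.97% lower, the highest from 11.1% to 2.75% and from 1.53% to 2.36%. With length added these were 9 glucocorticoid genes, 5 risers lower and 4 interactions. DESeq2 called 809 genes, 7 within 10 Mb of *Lmna*; 5 Mb held 3 and 20 Mb 19. The replicate block gave 1182 calls and 0 interactions against 1 week, and with the GC trend removed 778, with 5 risers lower. The labels link same-numbered hearts by number alone, and their deviations correlated at -0.004, -0.030 and 0.187. Whether such hearts share anything else is not given, and the change under the block says nothing of the size of the effect. The promoter-GC alternative was void, since promoters covered 75.2% of tested genes. Depth limits genes near the floor of 0.118 to 0.238 CPM. The cause of these shifts was not tested.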

Other observations

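Some groups outside the report's comparisons gave the following values, to be read beside the 7.53% of all genes tested that were called (3.93% higher and 3.61% lower). By chromosome, 18 genes were called higher and 37 lower on chromosome 13, 11.1% of those tested there, against 4.63% to 8.45% on the other autosomes and the X chromosome, and the Hist1 cluster lies on chromosome 13. Of 10 tested miRNA entries 4 were called higher and none lower, with a median log2 fold change of 1.02, and of 3 rRNA entries 1 was called higher. The 4 called miRNA entries are 57 to 60 bases long with 71.7% to 73.7% GC. Like the rRNA entry *CT010467.1*, each was highest in *Lmna*-/- replicate 2 and lowest in WT replicate 3. The part of residual ribosomal RNA in these values was not tested. Of 26 p53 target genes 3 were called higher, also without WT replicate 2, among them *Btg2* at 29.5, 53.6 and 46.5 CPM against 15.3, 13.7 and 13.5 CPM and the polo-like kinase gene *Plk3* at 2.01, 2.06 and 2.001 CPM against 0.720, 0.476 and 1.02 CPM. Of 23 hypoxia response genes 4 were called higher, with 1 left once the GC trend was removed and 0 without WT replicate 2. Of 27 genes of postnatal growth 3 were called higher (1 without WT replicate 2), including the binding protein genes *Igfbp6* (log2 0.93 ± 0.25) and *Igfbp5* (0.47 ± 0.12). Of 26 genes of amino acid and creatine transport 3 were called higher with and without the GC trend and 1 without WT replicate 2, and the arginine transporter gene *Slc7a1* stood at 0.61 ± 0.16 and the glutamine transporter gene *Slc38a2* at 0.33 ± 0.09. Of 26 genes of lipid droplets the lipase gene *Pnpla2* (log2 0.64 ± 0.15) and *Dgat2* (0.39 ± 0.10) were called higher, neither with the GC trend removed nor without WT replicate 2. Of 9 tested Schwann cell and nerve markers *Kcna1* alone was called (higher, log2 0.99), and of 14 smooth muscle and pericyte markers, 6 with a positive fold change, *Tagln* alone (higher, 0.55). Neither was called without WT replicate 2 (adjusted p = 0.159 and 0.176), and *Tagln* was not with the GC trend removed.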
